A study of Mus musculus with 15 samples.

Results

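The results below concern how the chromatin difference between Arid1a βKO and control islets changed with partial pancreatectomy (PPx), the surgical removal of part of the pancreas, at the open regions that could be followed at both times. A region entered when a peak listed in the genotype comparison before PPx and a peak listed in the genotype comparison after PPx lay on the same chromosome with centres at most 600 bp apart. This gave 7504 shared peaks, out of 7826 peaks listed before PPx, 13111 listed after PPx and 13433 over both comparisons. The interaction at a peak is the βKO minus control difference after PPx less the same difference before PPx, on the log2 scale, so a positive value means that βKO islets stood higher relative to control after PPx than before it.

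The assay was ATAC-seq, where a transposase inserts sequencing adapters into accessible DNA, and it was run on islets of 15 mice, males of 3 months. All mice, controls included, carried Arid1aFl/Fl together with MIP-rtTA, an activator that needs doxycycline and is expressed from an insulin promoter. In βKO mice TRE-Cre was added, so Cre is made in cells that express the activator, which are largely β cells, while the other islet cells keep Arid1a. Controls were 4 mice before and 4 mice 6 days after PPx, and βKO mice were 3 before and 4 at 6 days after PPx. Per the labels, doxycycline was given at 1 g/L in drinking water for 2 weeks, and surgery followed 1 week after it was withdrawn. Each library came from 40000 islet cells. The deposited tables hold 1 mean log2 concentration (normalized read signal in the peak) per group and none per library, so levels below are group means of those 3 or 4 mice, and a spread over mice cannot be given. Depth per library is unknown from these tables.

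The product of Arid1a binds DNA within the BAF form of the SWI/SNF complex, which uses ATP to slide and evict nucleosomes and so opens enhancers and promoters. Adult β cells divide rarely, and the loss of islet mass at PPx raises the demand on those that remain and is widely used to provoke β cell replication. An interaction of genotype and PPx asks whether the effect of the deletion on accessibility differed between resting islets and islets responding to surgery.

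The sequences below belong to 6 promoters that the results turn on. The first 4 had large positive interactions and Pgk1 the most negative value among strong named peaks. Ins1 is an insulin gene, the main product of β cells. Each is the 200 bases upstream of the annotated start, 5′ to 3′ on the gene's strand, from RefSeq on GRCm38.p6. Capitals mark matches on either strand to CCAAT or to GGGCGG (the SP/KLF GC box), the only ones found here of the 9 motifs searched.
Psmd1: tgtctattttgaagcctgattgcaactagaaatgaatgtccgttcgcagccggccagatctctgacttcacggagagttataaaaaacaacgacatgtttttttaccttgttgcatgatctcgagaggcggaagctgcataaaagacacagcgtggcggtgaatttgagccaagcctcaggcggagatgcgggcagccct
Pttg1: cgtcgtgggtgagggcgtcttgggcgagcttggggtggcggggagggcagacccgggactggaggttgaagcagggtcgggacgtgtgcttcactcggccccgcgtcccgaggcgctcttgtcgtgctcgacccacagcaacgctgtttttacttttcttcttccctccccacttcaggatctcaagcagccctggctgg
Mrps14: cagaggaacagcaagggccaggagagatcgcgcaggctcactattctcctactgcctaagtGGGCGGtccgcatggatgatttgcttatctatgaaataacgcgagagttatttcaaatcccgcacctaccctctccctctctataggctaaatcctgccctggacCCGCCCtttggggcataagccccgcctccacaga
Creg1: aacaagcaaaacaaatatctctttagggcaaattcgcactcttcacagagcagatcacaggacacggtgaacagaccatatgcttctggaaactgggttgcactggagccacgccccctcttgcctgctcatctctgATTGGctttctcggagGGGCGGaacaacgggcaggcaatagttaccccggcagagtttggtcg
Pgk1: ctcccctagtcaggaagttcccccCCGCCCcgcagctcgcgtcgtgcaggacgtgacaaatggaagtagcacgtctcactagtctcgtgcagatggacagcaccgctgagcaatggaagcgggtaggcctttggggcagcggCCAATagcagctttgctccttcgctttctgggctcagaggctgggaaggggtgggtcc
Ins1: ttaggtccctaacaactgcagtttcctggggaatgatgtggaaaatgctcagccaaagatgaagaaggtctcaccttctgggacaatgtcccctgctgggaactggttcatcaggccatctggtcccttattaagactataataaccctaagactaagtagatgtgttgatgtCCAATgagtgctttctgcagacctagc
Every stretch lies inside its peak. The Psmd1 and Pttg1 stretches held no match, Mrps14 held the GC box at 2 places, Creg1 and Pgk1 each held CCAAT and the GC box, and Ins1 held CCAAT alone. Of 32851 RefSeq promoter windows of 300 bases, 37.4% held CCAAT and 35.7% the GC box. Among the 3317 such windows matched to shared promoter peaks, the shares were 47.8% and 73.6%. The stretches printed here are shorter, at 200 bases, so these shares do not apply to them directly.

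Accessibility in βKO islets relative to control stood higher after PPx than before it at most shared peaks. The median interaction was 0.64 on the log2 scale, or 1.56-fold, with quartiles of 0.35 and 0.93, and 6920 peaks (92.2%) lay above 0. The median βKO minus control difference was 0.00 before PPx and 0.66 after it. The group medians of log2 concentration were 4.09 in control and 4.03 in βKO islets before PPx, and 4.01 and 4.64 after it, so the βKO islets after PPx stood apart from the other 3 groups. In whole islets a change in the number of cells of a type and a change in the signal per cell cannot be told apart.

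**Figure D1:**
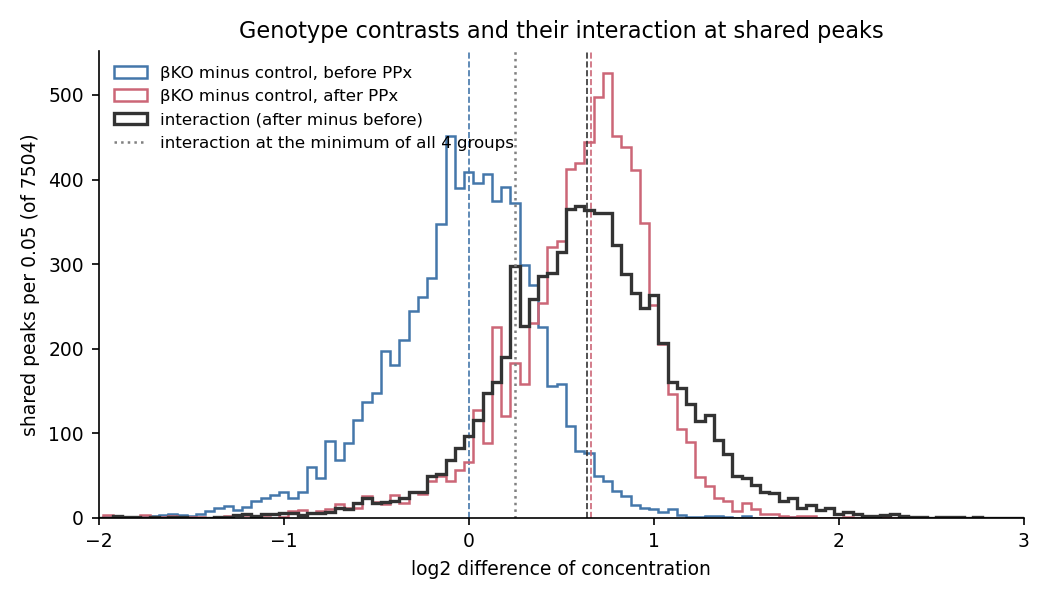
Number of shared peaks (of 7504) by log2 difference, for βKO minus control before PPx, the same after PPx, and the interaction, with dashed lines at the medians of 0.00, 0.66 and 0.64 and a dotted line at 0.25, the interaction of peaks at the minimum of all 4 groups. The curve after PPx lies to the right of the curve before PPx, and the interaction curve lies largely above 0.

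Peaks at the bottom of the scale did not give an interaction of 0. At 97 shared peaks, 59 of them on chromosome Y, every group stood at the smallest value of its column (control -0.12 and βKO -0.24 before PPx, control -0.26 and βKO -0.13 after it), and these peaks alone give an interaction of 0.25. All 97 were called as peaks in at least 1 library. Measured from that level, the median interaction was 0.39, or 1.31-fold, and 6048 peaks (80.6%) lay above it. The part of the scaling in the common shift was not tested. The interaction was therefore also centred on the median of all shared peaks, and what follows says which of these references is used.

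No tested peak passed the test of its interaction, which was run on all shared peaks except Pgk1 (described below). The standard error of each difference was derived from the authors' fold and p-value, both were added in quadrature because the comparisons before and after PPx share no library, and a normal test was adjusted by Benjamini-Hochberg over 7503 peaks. The test is an approximation that takes over the authors' model, since an exact test over mice needs values per library. At an adjusted p under 0.05 the test called 0 peaks (0%) in either direction, relative to 0 or to the median. At an unadjusted p under 0.05, 1076 peaks (14.3%) were above 0 and 9 (0.12%) below 0, where 375 are expected by chance over both directions. Relative to the median, 52 peaks (0.693%) were above and 79 (1.05%) below. The z-scores around the median had an SD of 0.78, narrower than the standard normal behind the figure of 375. That figure may therefore be too high for these errors, and the test may miss real differences. The SD of the interaction over peaks was 0.49 against a median standard error of 0.56, so the spread between peaks was no larger than the error of a peak.

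Psmd1, which encodes a subunit of the proteasome's regulatory particle, had the smallest p-value. Its promoter peak (mm10 chromosome 1, 86064228 to 86064828) had a log2 concentration of 4.08 in control and 2.93 in βKO islets before PPx, and 3.09 and 4.68 after it. Control thus stood above βKO before surgery and below it after surgery. The interaction was 2.74 ± 0.627 (SE), with an adjusted p of 0.0935 in the normal test over all shared peaks. In the authors' deposited table, the FDR of its difference after PPx alone was 0.0154. The promoter of the predicted gene Gm12915, also among the 6 smallest p-values, gave 2.25 ± 0.58 (SE), with an adjusted p of 0.156 in the normal test.

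Among named genes with peaks of at least the median strength, 7 of the 8 largest interactions are given here and ran from 1.79 to 2.07. The pattern was the same at these 7, with βKO islets below control before PPx and above control after it. Choosing peaks by the largest interaction favours that pattern, so it is no separate result. A distal peak annotated to Gch1 (chromosome 14, 47136533 to 47137133), whose product makes the first step of tetrahydrobiopterin synthesis, read 4.34 in control and 3.75 in βKO islets before PPx, and 3.65 and 5.13 after it, an interaction of 2.07 ± 0.562 (SE). The promoter of Agtpbp1, which encodes a carboxypeptidase that trims glutamate chains from tubulin, gave 1.97, and that of Ninl, a centrosomal ninein-like gene, 1.96. Zfp524, a zinc finger gene, stood at 1.86. At Creg1, which encodes a secreted lysosomal glycoprotein, the promoter peak (chromosome 1, 165763412 to 165764012) stood at 4.29 in control and 3.51 in βKO islets before PPx, and 4.04 and 5.10 after it. An intron 8 peak of Slc17a6, a vesicular glutamate transporter gene, gave 1.83. The Mrps14 promoter (chromosome 1, 160194849 to 160195449), of a mitochondrial ribosomal protein, read 4.62 and 3.88 before, and 4.41 and 5.46 after. Their standard errors ran from 0.503 (Zfp524) to 0.57 (Creg1), and the smallest adjusted p among them was 0.156 in the normal test.

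The tables also count the libraries of each group with a called peak. At Gch1 a peak was found in 2 of 4 control libraries and 1 of 3 βKO libraries before PPx, and in 0 of 4 and 3 of 4 after it. At Agtpbp1 the calls were 4 of 4 and 3 of 3 before, and 2 of 4 and 4 of 4 after. The listed level there was 3.76 both in βKO before and in control after PPx, from comparisons that may be scaled differently.

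Of the 8 smallest interactions of named genes of that strength, 7 are given here and ran from -2.16 to -0.53, and the order of the groups varied among them. At the promoter of Pgk1 (chromosome X, 106186575 to 106187175), which encodes the glycolytic phosphoglycerate kinase, control islets read 5.01 and βKO islets 5.09 before PPx, and 8.76 and 6.68 after it. Both genotypes thus stood higher after PPx, the controls by more. The p-value of that difference after PPx is listed as 1 despite its size, so no error could be derived from it. The error taken from peaks of like concentration, 0.477 for the interaction, was small beside the value of -2.16. Such a mismatch of p-value and size was the rule for leaving a peak out of the tests, so the result with Pgk1 included is not known. Tcte2 gave -1.22 ± 0.557 (SE), with 4.86 in control and 5.22 in βKO islets before PPx, and 4.32 and 3.46 after it. The exon 61 peak of Pkhd1 (chromosome 1, 20117046 to 20117646), which encodes fibrocystin of the primary cilium, read 4.33 and 4.17 before, and 4.79 and 3.63 after. In the authors' deposited table, the FDR of its difference after PPx was 0.0345. An intron 5 peak of the laminin gene Lama1 gave -0.99, with βKO above control by 1.19 before PPx and by 0.20 after it. The defensin gene Defb1 gave -0.62, Fbxo15 -0.56 and Litaf -0.53. Of the 6 given here that were tested, Tcte2 had the smallest adjusted p, 0.325 in the normal test.

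**Figure D2:**
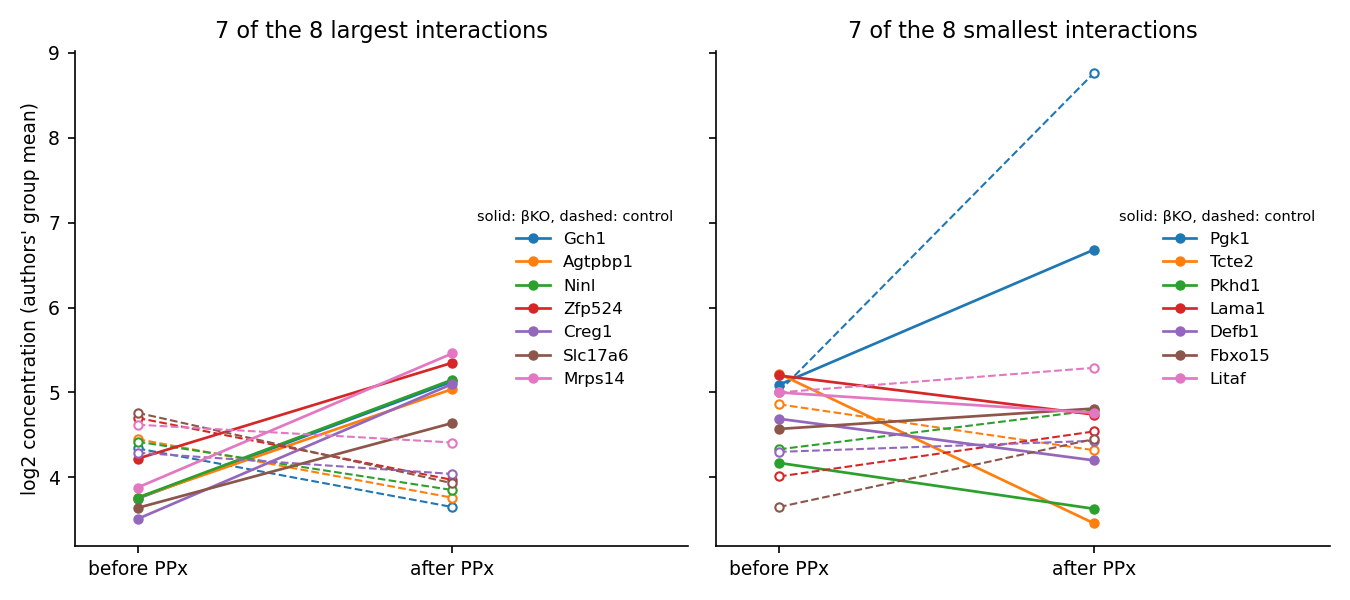
Group mean log2 concentration (vertical axis) before and after PPx at 7 of the 8 largest (left) and 7 of the 8 smallest (right) interactions among named genes of at least median strength, with solid lines and filled points for βKO and dashed lines with open points for control. On the left the βKO lines climb and cross the control lines, as from 3.75 to 5.13 against 4.34 to 3.65 at Gch1, and on the right the control level of Pgk1 goes from 5.01 to 8.76. Levels before and after PPx come from separate comparisons that may be scaled differently.

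Read relative to the median, the smallest adjusted p was 0.407 in the normal test, at a distal peak near the predicted gene Gm23255 that read 3.59 in control and 4.00 in βKO islets before PPx, and 3.89 and 1.93 after it. Psmd1 was the only one of the 6 smallest p-values relative to the median that lay above it.

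The targeted gene had a shared peak in exon 9 of 20 (chromosome 4, 133692980 to 133693580). It read 1.21 in control and 5.49 in βKO islets before PPx, and 0.40 and 4.04 after it, and a peak was called in no control library at either time (0 of 4 each), in 3 of 3 βKO libraries before and in 3 of 4 after. The βKO islets were thus far above control at both times, and the interaction of -0.64 ± 1.08 (SE) was smaller than its error. Which exons the floxed allele removes is not stated in the labels, so this peak does not check the deletion. The difference at Arid1a was the only 1 of 7504 (0.0133%) under an FDR of 0.05 before PPx in the authors' deposited table.

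After PPx, 1172 of the 7504 shared peaks (15.6%) were higher and 9 (0.12%) lower in βKO islets at an FDR under 0.05 in the authors' deposited table. The shared peaks were also sorted by the sign of the listed difference at each time. At 3321 peaks (44.3%) βKO islets lay below control before PPx and above it after, with a median interaction of 0.92, and 420 of these were higher after PPx by FDR. At 3252 peaks (43.3%) βKO was above control at both times and more so after PPx, with a median difference of 0.22 before and 0.76 after, and 739 were higher by FDR. A further 348 (4.64%) were above control at both times but not more after, 396 (5.28%) were below at both, and 98 (1.31%) turned from above to below. The remaining 89 had a difference of 0 at either time. Promoters made up 83.4% of the peaks that were above control at both times and more so after PPx, and 15.4% of those below control at both times. They made up 69.2% of those that turned from below to above, beside 5349 of all 7504 shared peaks. These groups are defined by the signs of the differences themselves, many of which are smaller than their errors. The groups therefore do not show that peaks took different paths.

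The listed genotype differences before and after PPx were weakly correlated over peaks. Over 7504 peaks, Pearson's r between these differences was 0.29 and Spearman's rho 0.27, from libraries of different mice. Over promoters within 1 kb both were 0.14 (5185 peaks), and over all other classes both were 0.33 (2319 peaks). The peaks of a comparison share its libraries, so these are descriptions. Both differences carry error, which lowers such a correlation, and the size of that effect was not tested.

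**Figure D3:**
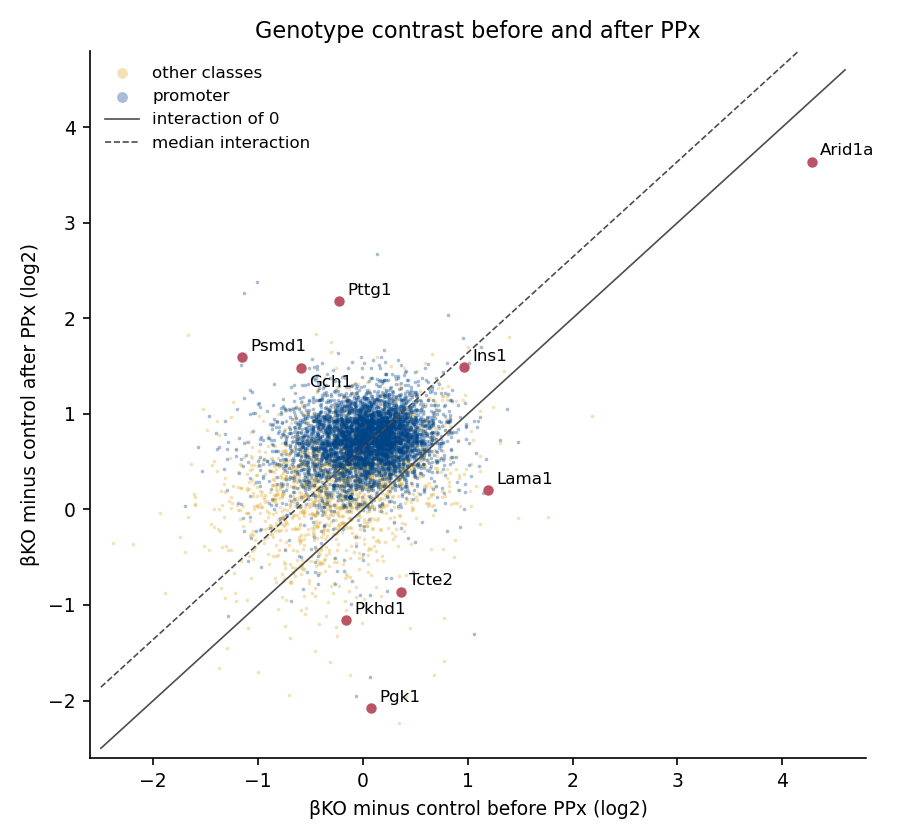
Each point is a shared peak, with the βKO minus control log2 difference before PPx on the horizontal axis and after PPx on the vertical axis, promoter classes in blue and other classes in yellow. Most points lie above the solid line (interaction of 0), Psmd1 and Pttg1 lie above the dashed line (median interaction of 0.64), and Pgk1, Tcte2, Pkhd1, Lama1 and Arid1a lie below the solid line.

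By annotation class, peaks within 1 kb of a start had the highest median interaction. The 5185 peaks within 1 kb of a start had a median of 0.68 with quartiles of 0.43 and 0.95, and 54.0% lay above the median of all shared peaks, against 49.3% over all. Their median level was 4.2 in control and 4.21 in βKO islets before PPx, and 4.11 and 4.85 after it. The 164 promoter peaks at 1 to 3 kb had a median of 0.60. In introns (679 peaks) the median was 0.62, close to that of promoters, but it was reached from below, with a median difference of -0.21 before PPx and 0.37 after it. The median was 0.53 in 92 exon peaks, 0.42 in 28 downstream peaks and 0.45 in 32 peaks of untranslated regions. Distal intergenic regions (1324 peaks) had a median of 0.45, from -0.12 before PPx to 0.38 after it, and 34.4% lay above the median of all. The gap of 0.23 between the medians of promoters within 1 kb and distal peaks was 0.14 among peaks of at least the median concentration and 0.15 without predicted genes. By the authors' FDR after PPx, 1043 peaks within 1 kb of a start (20.1%), 29 intron peaks (4.27%) and 78 distal peaks (5.89%) were higher in βKO islets, beside 15.6% over all shared peaks. Peaks are not replicates of a condition, so the classes were not tested against each other.

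Peak strength, the mean log2 concentration over the 4 groups, went with both differences more than with the interaction. In 10 equal groups from weakest to strongest, the median difference before PPx was -0.12 in group 1 and 0.18 in group 10, and the median after PPx was 0.36 and 0.75. The interaction was 0.45 in the weakest group, between 0.63 and 0.71 in groups 2 to 9, and 0.55 in the strongest. With peaks sorted by their level before PPx alone the end groups gave 0.50 and 0.54. Strength and class were partly the same property, since promoter peaks (within 1 kb and at 1 to 3 kb together) made up 43.5% of the weakest and 87.0% of the strongest group. The lower interaction of distal peaks stood at every level of strength. Cut into 3 strength classes, distal peaks had centred medians of -0.28, -0.09 and -0.13 from weakest to strongest, and promoters within 1 kb 0.07, 0.09 and 0.01.

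**Figure D4:**
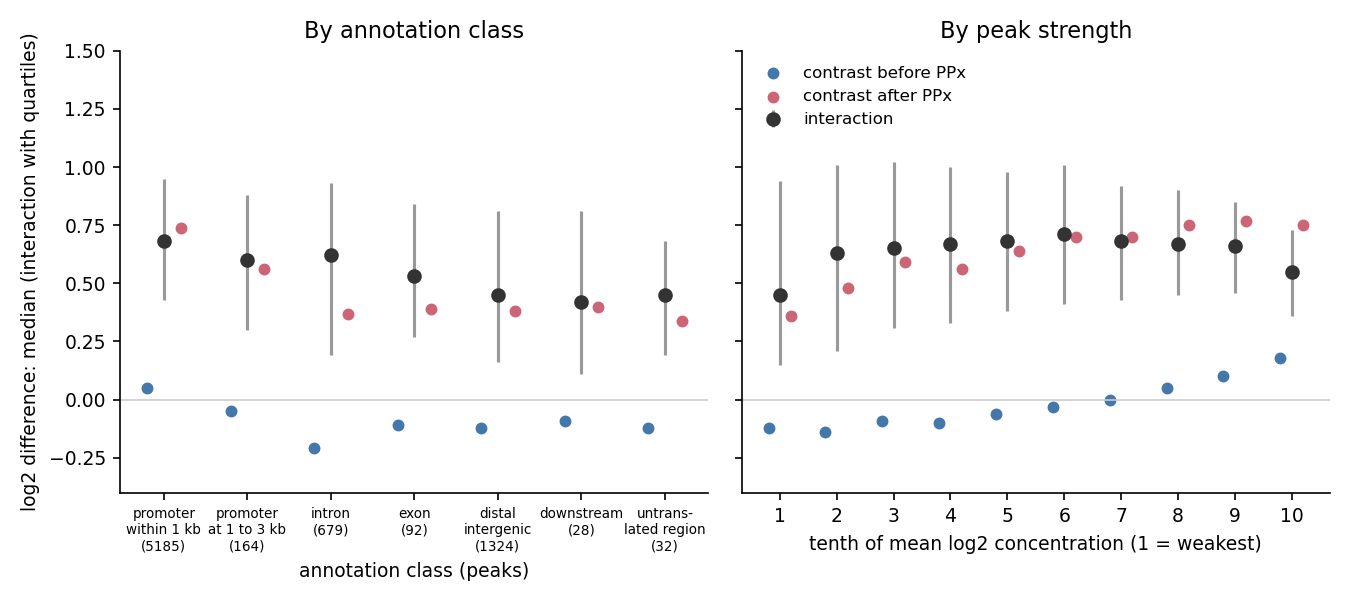
Median log2 difference βKO minus control before PPx (blue) and after PPx (red) and the interaction (black, with bars from the lower to the upper quartile), by annotation class with peak numbers in brackets (left) and by 10 equal groups of mean log2 concentration (right). The blue points climb from -0.12 to 0.18 and the red points from 0.36 to 0.75 along strength, and the black points stay between 0.45 and 0.71.

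The 10 peaks with a mean log2 concentration of 8 or more were an exception. Their median interaction was -0.02, all 10 lay below the median of the shared peaks, and their median difference was -0.05 before PPx and -0.17 after it. An exon 5 peak of the cell adhesion gene Chl1 read 12.75 in control and 12.79 in βKO islets before PPx, and 12.69 and 12.76 after it. A distal peak near Pak3, a kinase gene, read 11.88 and 12.06 before, and 11.85 and 11.89 after. At both peaks βKO stood slightly above control at each time, unlike the medians of the 10. Hjurp, which encodes the chaperone that loads centromeric histone, had the strongest promoter within 1 kb of a gene that is not a predicted one. It is also among the 10, with 7.86 and 7.99 before, 7.93 and 8.49 after, and an interaction of 0.43. The strong promoter of Khsrp, an RNA-binding protein gene, gave 0.70, and that of M6pr, a mannose phosphate receptor gene, 0.36.

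Gene lists were described by the interaction of their shared peaks beside the median of 0.64 and the 49.3% above it. In every list 0 peaks had an adjusted p under 0.05 in the normal test, so counts at an unadjusted p under 0.05 are given beside the 14.3% of all peaks that reached it above 0. Counts by the authors' FDR after PPx stand beside 15.6% of all shared peaks and 20.1% of those within 1 kb of a start. Of the lists with 20 or more peaks, oxidative phosphorylation had the highest median.

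Genes of the respiratory chain and ATP synthase (36 genes with a peak, of 55 in the list) had a median interaction of 0.86, and 26 of 36 peaks lay above the median of all. At an unadjusted p under 0.05, 7 were above 0, and 8 (22.2%) were higher in βKO islets after PPx by the authors' FDR, close to the 20.1% of all promoters within 1 kb. The largest value was at Sdhc, which encodes a membrane subunit of succinate dehydrogenase, with 3.63 in control and 3.11 in βKO islets before PPx, and 2.93 and 4.24 after it (interaction 1.83 ± 0.675, SE). Uqcrq, a subunit gene of the cytochrome bc complex, read 4.47 and 4.06 before, and 4.07 and 5.22 after. Ndufs1, of the iron-sulphur core of NADH dehydrogenase, gave 1.51, and Atp5b, of the catalytic head of ATP synthase, 0.94. A distal peak annotated to Ndufb3 stood alone below 0, at -1.18, with 3.70 and 3.69 before, and 3.99 and 2.80 after.

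Cytosolic ribosomal proteins gave a similar picture from promoters alone. Their 33 peaks (32 genes) had a median of 0.81, 26 lay above the median of all, and 11 (33.3%) were higher after PPx by FDR, beside 20.1% of all promoters within 1 kb. The largest value was 1.42 ± 0.612 (SE) at Rps7, which read 3.94 in control and 3.52 in βKO islets before PPx, and 3.57 and 4.57 after it. At an unadjusted p under 0.05, 4 were above 0. Mitochondrial ribosomal proteins (24 peaks, 22 genes) had a median of 0.72, 15 above the median of all and 6 above 0 at an unadjusted p under 0.05. Their largest value, 2.06 at Mrpl57, came with 3.57 and 3.08 before, and 2.28 and 3.85 after.

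Immediate early and cAMP response genes, which are switched on within minutes of a stimulus, had a median of 0.81 over 27 peaks of 18 genes. Of these peaks 17 lay above the median of all and 7 were above 0 at an unadjusted p under 0.05. An intron 3 peak of Pde4d, a cAMP phosphodiesterase gene, gave 1.59 ± 0.653 (SE), with 4.09 in control and 2.42 in βKO islets before PPx, and 3.82 and 3.74 after it. Its size thus came from a low βKO level before surgery. A distal peak of the antiproliferative gene Btg2 read 4.49 and 4.42 before, and 4.23 and 5.45 after. The promoter region of the nuclear receptor gene Nr4a3 gave 1.18 and that of Klf6 0.46.

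Insulin, IGF, PI3K and mTOR signalling (19 peaks, 16 genes) had a median of 0.76, with 13 peaks above that of all. By role, the receptor promoters Insr and Igf1r gave 0.23 and 0.67, the adaptor promoter Irs1 0.41, the kinase promoters Pik3ca and Pdpk1 0.90 and 1.34, and Mtor 0.42. Pdpk1, whose kinase activates AKT, read 3.96 in control and 3.54 in βKO islets before PPx, and 3.70 and 4.62 after it. EGF, neuregulin and ERBB signalling (24 peaks, 18 genes) had a median of 0.60, with values from 0.08 at Adam10, a shedding protease gene, to 1.11 at Sos2, a RAS exchange factor gene. Among its ligand promoters Btc gave 0.62 and Areg 0.91, the receptor promoter Egfr gave 0.16, and an intron 1 peak of the receptor Erbb4 gave 0.68. In this list 0 peaks had an unadjusted p under 0.05.

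Cell cycle genes (27 peaks, 21 genes) had a median of 0.60, with 11 above the median of all and 5 above 0 at an unadjusted p under 0.05. The promoter of Pttg1 (chromosome 11, 43425976 to 43426576), which encodes securin, the inhibitor of sister chromatid separation, stood apart from the rest at 2.41 ± 0.647 (SE), with an adjusted p of 0.156 in the normal test. Its levels were 3.93 in control and 3.70 in βKO islets before PPx, and 2.20 and 4.38 after it. Calls covered 3 of 4 controls and 3 of 3 βKO libraries before, and 0 of 4 and 4 of 4 after, so the low level of controls after PPx made up most of the value. Cdk1, the mitotic kinase gene, read 4.03 and 3.35 before, and 3.53 and 4.24 after. The inhibitor promoters Cdkn1b and Cdkn2c gave 0.64 and 0.60, and Cdkn2a, the p16 and ARF locus, 0.15. The Myc promoter gave 0.35, and a distal peak annotated to Myc had the smallest value of the list, -0.62.

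The unfolded protein response and ER chaperone list (17 peaks, 15 genes) had a median of 0.66 and 5 peaks above 0 at an unadjusted p under 0.05. The promoter of Hspa5, the ER chaperone BiP, read 4.93 in both genotypes before PPx, and 4.73 in control and 5.78 in βKO islets after it. A distal peak of Eif2ak3, the kinase PERK, gave 1.53 and its promoter 0.54. TGF-beta, activin and BMP signalling (15 peaks, 12 genes) had a median of 0.49 (centred -0.15, and -0.43 with centres at most 100 bp apart), from -0.48 at a distal Bmpr1b peak to 1.24 at the promoter of Skil, a SMAD corepressor gene. In that list 6 of 15 peaks (40.0%) were higher after PPx by FDR, beside 15.6% of all shared peaks, but the median difference before PPx was already 0.34. The Acvr2a promoter, of an activin receptor, read 4.72 and 5.51 before, and 4.95 and 5.86 after.

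Wnt signalling (18 peaks, 11 genes) had a median of 0.63, with 1.28 at the receptor promoter Fzd5 and 0.89 at Gsk3b. Notch signalling (16 peaks, 14 genes) had a median of 0.68, with 0.79 at the receptor promoter Notch2, 0.39 at the target Hes1 and 1.61 at Psen2, a secretase subunit gene. Zinc finger genes named Zfp (192 peaks, 176 genes) had a median of 0.65 and ran from -1.03 at Zfp36l1-ps to 2.25 at Zfp513. Promoter factors of the AP-1, NF-Y, SP and ETS families (13 peaks, 12 genes) had a median of 0.66, with 0.85 at Sp1 and -0.08 at Ets1. SWI/SNF subunits (9 peaks, 8 genes) had a median of 0.52. Besides Arid1a, the alternative ARID subunit Arid1b gave 0.33 at a distal and 1.13 at an intron 4 peak, and the ATPase promoters Smarca4 and Smarca2 gave 0.15 and 1.00.

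**Figure D5:**
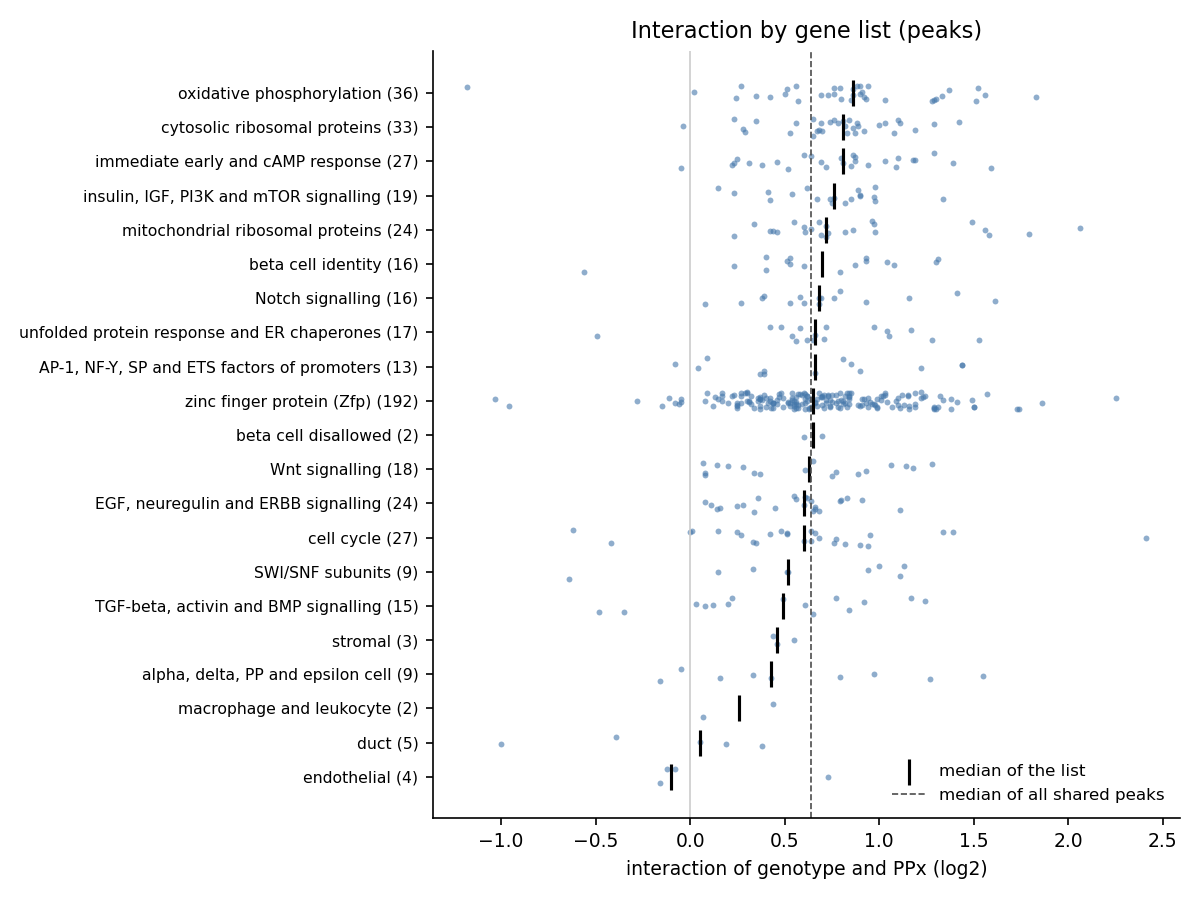
Interaction (log2, horizontal axis) of every shared peak in the gene lists that have any, with the median of each list as a black tick, the median of all shared peaks (0.64) as a dashed line and 0 as a grey line; peak numbers stand in brackets. List medians run from -0.10 (endothelial, 4 peaks) to 0.86 (oxidative phosphorylation, 36 peaks), and single peaks spread far more widely than the medians.

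Of 31 β cell identity genes 13 had a shared peak, and the other 18, Ins2, Pdx1 and Mafa among them, were not analysed here. Their 16 peaks had a median interaction of 0.70, with 8 above the median of all. That list's centred median changed side with the peaks kept, being -0.09 with centres at most 100 bp apart. The Nkx6-1 promoter, of a factor that maintains the β cell state, read 4.29 in control and 4.04 in βKO islets before PPx, and 3.81 and 4.87 after it (interaction 1.31 ± 0.535, SE). An intron 2 peak of the zinc transporter gene Slc30a8 read 4.51 and 3.06 before, and 4.49 and 4.34 after, below control at both times. The Ins1 promoter (chromosome 19, 52263934 to 52264534) read 4.12 and 5.08 before, and 4.13 and 5.62 after, above control at both times, with an interaction of 0.53 ± 0.561 (SE). The labels do not say which insulin promoter the transgene carries. If it is that of Ins1, its reads cannot be told apart from those of the gene. A distal Isl1 peak gave -0.56 and the Isl1 promoter 0.93. The β cell disallowed genes Ndrg4 and Nfib gave 0.60 and 0.70.

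Markers of other cells were few among the shared peaks. For α, δ, PP and ε cells (9 peaks, 7 of 17 genes) the median was 0.43. A promoter-class peak of the glucagon gene Gcg gave -0.16, a distal peak near the somatostatin gene Sst 0.43, and an exon 3 peak of Mboat4, the ghrelin acyltransferase gene, 1.55. For acinar cells 0 of 20 genes had a shared peak. Of 18 duct genes Pkhd1 alone had any, at 5 places, with a median of 0.05 and a largest value of 0.38. Endothelial genes (4 peaks of 4 genes, of 17) had a median of -0.10, with -0.16 at an intron 15 peak of Flt1, -0.12 at an intron 1 peak of Tek, -0.08 at the promoter of Ets1 and 0.73 at that of Esam. Stromal genes (3 peaks) had a median of 0.46, and the macrophage genes Cx3cr1 and Mrc1 gave 0.07 and 0.44. The part of cell composition in the interaction was not tested.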

How the data were processed

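ATAC-seq of whole islets gave 4 deposited comparison tables with 1 row per peak of 601 bp. Reads were processed with cutadapt, BWA, MACS, DiffBind and ChIPseeker on mm10 (GRCm38), per the submitters' processing notes; for versions, settings and the normalization the sources used here give nothing. Per the file headers, the deposited values are the log2 concentration of each group, a log2 fold, a p-value and an FDR. Totals per library are unknown. Repeated rows were reduced to 1 per position (9024 rows before PPx), and each peak before PPx was joined to the nearest peak after PPx within 600 bp (median 32 bp; same gene symbol at 7460). Just inside the limit, Gpm6a at 595 bp gave -0.38, and just outside it Pam at 612 bp gave 2.40. The members and lists were chosen with earlier results of these data known.

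The standard error of a difference was |fold| over the normal quantile of its p-value, or, for p of 0.5 or more or a fold under 0.1, the median of its bin among 20 bins of concentration, which applied at either time to 4723 peaks. A peak with p of 0.5 or more and a fold over 2 such errors (1 peak, Pgk1) was left out of tests. Tests were 2-sided normal tests with Benjamini-Hochberg adjustment at 0.05, in Python 3.11.15 with pandas 2.3.3, numpy 2.4.6 and scipy 1.17.1. The code was run on simulated data whose p-values came from the same normal formula. That check cannot show whether errors derived from the authors' folds and p-values hold. The islets are labelled as separate mice.

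Named genes were any past the test, the 8 largest and 8 smallest interactions among peaks of at least the median strength (4.17) without predicted genes (Gm number, Rik, LOC), the extremes of each of 22 lists, Arid1a and insulin peaks, and the 3 strongest promoters. Some of these are not reported here. Other members of lists, Psmd1 and other peaks of smallest p, and Chl1 and Pak3 were chosen after their values were seen. Motifs searched on both strands were TGACGTCA and TGACGNNA (cAMP response element, the second including the first), TGANTCA (AP-1), CCAAT (NF-Y), GGGCGG (SP/KLF), CCGGAAG (ETS), the NRF1 motif, AAGATGGCG (YY1) and CACGTG (E-box). A comparison of promoter sequence along the interaction is not reported here, since only 3317 of 5185 promoter peaks matched a RefSeq window by 150 bp or more. Alternatives varied the matching distance, the peaks kept, the source tables, the standard error, the reference and the thresholds.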

Additional observations from a re-analysis of the deposited data

How the results depend on the processing

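The median interaction stayed between 0.63 and 0.66 and the counts of called peaks stayed at 0 under other matching distances, other sets of peaks and centring on promoters or on strength. The gap between promoters within 1 kb and distal peaks, 0.23, lay between 0.14 and 0.23, being 0.14 among peaks of at least the median concentration and 0.15 without predicted genes; the other class medians and the share above 0 were not recomputed under these. From the comparisons of times, which use the same libraries, the median was 0.65 over 6807 peaks (βKO after minus before 0.82, control 0.15) and 93.3% lay above 0. The smallest values of the columns there differed by 0.34 in βKO and 0.09 in control islets, after minus before. That route thus has the same offset of 0.25. In the main analysis, measured from peaks at the minimum of all 4 groups, an alternative added after seeing the data, the median was 0.39. With the bin median standard error at every tested peak, Pgk1 again being left out, 2 peaks were called relative to 0. These were Psmd1 and Gm13286, each at an adjusted p of 0.0352 in the normal test. Relative to the median 1 peak was called, Gm23255, at an adjusted p of 0.0316 in the normal test. At an adjusted p under 0.1, 1 peak was called relative to 0. The strongest minus the weakest strength group gave 0.10 in the main analysis, -0.20 among peaks of at least median concentration, -0.06 without predicted genes and 0.22 among peaks called in at least 1 library of each group (added after seeing the data), so no direction along strength holds between the end groups. At an FDR under 0.01 after PPx, 2 shared peaks were higher and 0 lower in the authors' deposited table, against 1172 and 9 at 0.05.

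Relative to the median, list medians moved by under 0.1 in 75 comparisons and more in 9. The centred median of the TGF-beta list, -0.15, was -0.43 with centres at most 100 bp apart, -0.28 among peaks of at least the median concentration and -0.30 from the comparisons of times. That of β cell identity, 0.06, was -0.09, -0.04 and 0.25 in the same order. The promoter factor list, 0.02, was -0.12 with the closer centres and -0.10 from the comparisons of times, and Wnt signalling, -0.01, was 0.13 among the stronger peaks. Of the named peaks, 586 values kept their sign while 10 did not. The exceptions were from the comparisons of times, where Col1a2 gave 0.09 and Dcn 0.03, and from the minimum of all groups, where Ndrg4 gave 0.35, the Pkhd1 peak in the 3′ untranslated region 0.13, Col1a2 0.19, Dcn 0.30, Mrc1 0.19, Ins1 0.28, Hjurp 0.18 and M6pr 0.11. Measured from the minimum of all groups, every value rose alike, because the reference moved from 0.64 to 0.25. The cause of the other changes was not tested. No library could be left out, since the tables hold group means. No paired analysis was possible because the samples share no replicate numbers and the tables hold no value per library.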

Other observations

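Peaks listed at only a single time lay outside the interaction. The 5607 peaks listed after PPx only were weaker, with a median log2 concentration of 3.06 in control and 3.53 in βKO islets, a median difference of 0.51 and 124 (2.21%) higher in βKO islets at an FDR under 0.05 in the authors' deposited table. Promoters made up 48.2% of them. The 322 peaks listed before PPx only had a median difference of -0.12 and a promoter share of 39.8%.

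By chromosome, the median interaction lay between 0.58 (chromosome 5) and 0.76 (chromosome 11) on the autosomes and X, and was 0.25 over the 73 peaks of chromosome Y. Pairs of peaks with centres 0 to 100 bp apart had medians of 0.63 to 0.66, and the 122 pairs more than 300 bp apart had a median of 0.36. The z-scores of the interaction around its median had an SD of 0.78.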
